A study of Mus musculus with 4 samples.

Results

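Natural killer (NK) cells of mouse tumours were described in 2 single-cell RNA libraries, 1 from a tumour given NanoCa and 1 from a mock tumour. A barcode was a member when it held at least 1 UMI (unique molecular identifier, 1 counted transcript) of Ncr1 or Klrb1c and at least 1 of Nkg7, no UMI of Cd3d, Cd3e, Cd3g or Cd79a, and at most 2 UMIs of the C1q genes together and at most 2 of Rhox5. It also had to have at least 200 detected genes and at most 10% mitochondrial UMIs. The rule found 137 members among 11215 kept barcodes of the NanoCa tumour and 174 among 9281 of the mock tumour, 311 of 20496 in all. Members were chosen by these measured UMIs, so the levels of Ncr1, Klrb1c and Nkg7 and the absence of the excluded genes describe the choice and are not results. Just inside the rule, 35 NanoCa and 45 mock members rested on a single Ncr1 or Klrb1c UMI, and 82.9% and 84.4% of them held Gzma. Just outside it, 40 and 53 barcodes met every other condition with no Ncr1 or Klrb1c UMI, and 60% and 60.4% of those held Gzma. A further 14 and 16 barcodes were outside for 1 Cd3 UMI.

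NK cells are innate lymphocytes that read a balance of activating and inhibitory receptors on their surface and kill a target by releasing perforin and granzymes from granules. They also secrete interferon-gamma and the chemokines Ccl3, Ccl4, Ccl5 and Xcl1, which recruit other leukocytes. Interleukin-12, interleukin-15, interleukin-18 and type I interferon are known to raise NK effector genes.

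The series holds 4 libraries from female mice aged 4 to 8 weeks that bore CT26, a transplantable mouse colon carcinoma line. Tumour and the lymph node draining it (TDLN) were each sampled with NanoCa, a lipid nanoparticle containing calcium, and with no treatment (mock), and the title names interferon-beta immunotherapy as the subject. The treatment tag and the titles give the groups, whereas a separate protocol field names NanoCa for all 4 libraries. The labels do not name mouse strain, dose, time, mice per library or the CD45 gate of the sort, and all 4 libraries carry the same batch date. Each group is 1 library, so no test between treatments was possible. Every interval below is a 95% exact interval for counting error only, and it covers neither the spread between animals nor dissociation. Intervals of levels and of gene ratios also leave out the clustering of UMIs in single members.

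The tumour libraries held 167924801 and 148121144 UMIs in 11287 and 9404 barcodes. The libraries shared between 121 and 183 barcode sequences pairwise, 1.29% to 1.65% of the smaller library, and 0 of these were members in both. The NanoCa members held 578012 UMIs in sum with a median of 3141 UMIs and 1447 genes per member. The mock members held 792922 UMIs with a median of 3707.5 UMIs and 1566.5 genes. Levels are UMIs summed over the members of a library as counts per 1000000 summed UMIs (CPM), and because the assay counts 3′ ends they are not divided by gene length.

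NK genes that the rule did not use were high in the members. Gzma stood at 6507 CPM in NanoCa members and 9296 CPM in mock members, against 18.0 and 30.9 CPM in all other kept barcodes of the same libraries. Prf1 stood at 647 and 774 CPM against 2.64 and 6.34 CPM. The 13 T-cell markers summed to 201 and 274 CPM, above 50.5 and 89.9 CPM in the other barcodes, although the rule set the 3 Cd3 genes among them to 0. Cd28, at 84.8 and 121 CPM, and Trbc1, at 64.0 and 85.8 CPM, made up most of that sum, with Trac at 10.4 and 13.9 CPM and Cd8b1, Cd5 and Cd6 at 0. Of the 8 genes on the gamma-delta T-cell list 5 were in the counts, and Tcrg-C1, Tcrg-C2 and Tcrg-C4 could not be looked up. The list summed to 121 and 175 CPM, against 1.75 and 1.64 CPM in the other barcodes. It rested on Trdc, at 70.9 and 114 CPM and called lower with NanoCa by the rule given below, and on Trdv4, at 50.2 and 61.8 CPM, with Sox13, Il17a and Cd163l1 at 0. Trdc transcripts are known in NK cells, and the part of gamma-delta T cells in these members was not tested. The list of group 2 innate lymphoid cells (ILC2) summed to 138 and 102 CPM, mostly Il1rl1, with Il13 and Il5 at 0, and the group 3 list (ILC3) to 31.1 and 27.7 CPM, with Il22 and Il23r at 0. The B-cell markers summed to 39.8 and 32.8 CPM, mostly Ighm, with Ms4a1 at 0 and Cd79a at 0 by the rule. The plasmacytoid dendritic cell list summed to 1356 and 1545 CPM through Irf8 and Bst2, which NK cells also express, and its defining genes Siglech, Ccr9 and Ly6d were at 0. Macrophage markers summed to 434 and 426 CPM, a sum that the rule lowers by its limit on C1q. Lyz2, a macrophage gene outside the rule, stood at 164 and 169 CPM, against 561 and 556 CPM in the other barcodes.

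Fibroblast markers differed between the libraries. The 9 genes summed to 753 CPM in NanoCa members and 253 CPM in mock members, against 1300 and 945 CPM in the other barcodes. A few members carried much of this RNA. With Ccn1 added, 8 of 137 NanoCa and 4 of 174 mock members held at least 20 of these UMIs, and they are called the 12 mixed members here. Some passed through Ccn1, which is not on the fibroblast list. The 2 NanoCa members above 20000 UMIs held 40 and 83 Ccn1 UMIs and 2 and 8 Sparc UMIs. The cut is a plain UMI count that deep barcodes reach more easily, and the mixed members had medians of 14376 and 8991 UMIs. The 8 NanoCa members supplied 21.1% of all NanoCa NK UMIs, whereas the 4 mock members supplied 4.47%. Ncr1 stood at 123 and 113 CPM in the mixed members and at 934 and 818 CPM in the rest. Without them 129 and 170 members remained, and fibroblast markers stood at 215 and 144 CPM, a fall that follows from how the mixed members were chosen. Values without the 12 mixed members are given beside many of the results.

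NK members made up a smaller share of the NanoCa tumour than of the mock tumour. The share of kept barcodes was 1.22% (1.03 to 1.44) with NanoCa and 1.87% (1.61 to 2.17) with mock, a log2 ratio of -0.62 (-0.95 to -0.29). Among barcodes with a UMI of Ptprc, the gene of CD45, the shares were 4.81% (3.99 to 5.73) and 6.71% (5.74 to 7.79), a log2 ratio of -0.48 (-0.84 to -0.13). NK members were 40.5% of NK and CD8 T barcodes together with NanoCa and 38.9% with mock, and those intervals overlap. The sort was set on CD45 and its gate is not known, so a share describes the sorted suspension. Fewer NK cells and less NK RNA per cell cannot be told apart in this share, since detection of Ncr1 decides membership.

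Genes were compared between the NK members of both libraries. A gene was called higher or lower when its CPM differed at least 1.5-fold, the interval of the ratio excluded 1, and it held at least 50 UMIs over both libraries. Of 3925 genes tested, 336 were called higher with NanoCa, which is 8.56%, and 132 were called lower, which is 3.36%. The median log2 ratio of all tested genes was 0.01. Among the 17 tested genes of NK identity, which include Ncr1, Klrb1c and Nkg7 of the rule, 0 were called in either direction. Of these 17, 14 had a negative log2 ratio, the median was -0.23 and the summed level gave -0.36 (-0.40 to -0.32). The median was -0.04 without the mixed members. Without the mixed members 213 genes were called higher and 96 lower of 3416. The split depended on scaling, since TMM scaling gave 261 higher and 213 lower and median-of-ratios scaling gave 232 higher and 261 lower.

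No activating receptor passed the call rule. All 13 that were tested, Ncr1 of the rule among them, stood between the thresholds, with a median log2 ratio of -0.06, and 0.15 without the mixed members. Ncr1, which encodes the activating receptor NKp46, stood at 763 CPM with NanoCa and 787 CPM with mock, which describes the choice of members. Klrk1, the gene of NKG2D, stood at 261 and 315 CPM with overlapping intervals. Cd2, an adhesion and costimulatory receptor, stood at 178 and 224 CPM. Tnfrsf9, the gene of 4-1BB, stood at 427 and 537 CPM, a log2 ratio of -0.33 (-0.56 to -0.10). Their adaptors were abundant. Tyrobp, which encodes DAP12, stood at 2199 and 2251 CPM, Fcer1g at 1202 and 1415 CPM, and Hcst, which encodes DAP10, at 318 and 406 CPM. Of 14 genes of receptor signalling 0 were called, and without the mixed members 1 was, Cd247, the zeta chain gene, at a log2 ratio of 0.68.

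Inhibitory receptors showed the same picture. Klrd1 and Klrc1 encode CD94 and NKG2A, which pair to recognise a nonclassical MHC class I molecule. Klrd1 stood at 405 and 521 CPM and Klrc1 at 304 and 409 CPM, and their log2 ratios were -0.36 (-0.60 to -0.13) and -0.42 (-0.70 to -0.16). Of the Ly49 receptors for MHC class I, Klra3 stood at 310 and 366 CPM and Klra7 at 256 and 222 CPM. Klra8 had 1 UMI with NanoCa and 0 with mock, and Klra9 had 0 in both. The Ly49 genes are near-identical neighbours that differ between mouse strains, so reads can be split or lost among them and their separate levels are uncertain. The checkpoint gene Pdcd1 had 1 and 0 UMIs and Havcr2 had 0 and 6, whereas Tigit stood at 142 and 127 CPM. As a rough floor, 3 UMIs correspond to 5.19 CPM in NanoCa members and 3.78 CPM in mock members. The exact interval of a count of 0 reaches higher, to 4.65 CPM in mock members. All 7 tested inhibitory receptors stood between the thresholds, with a median of -0.24, and -0.06 without the mixed members.

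**Figure D1:**
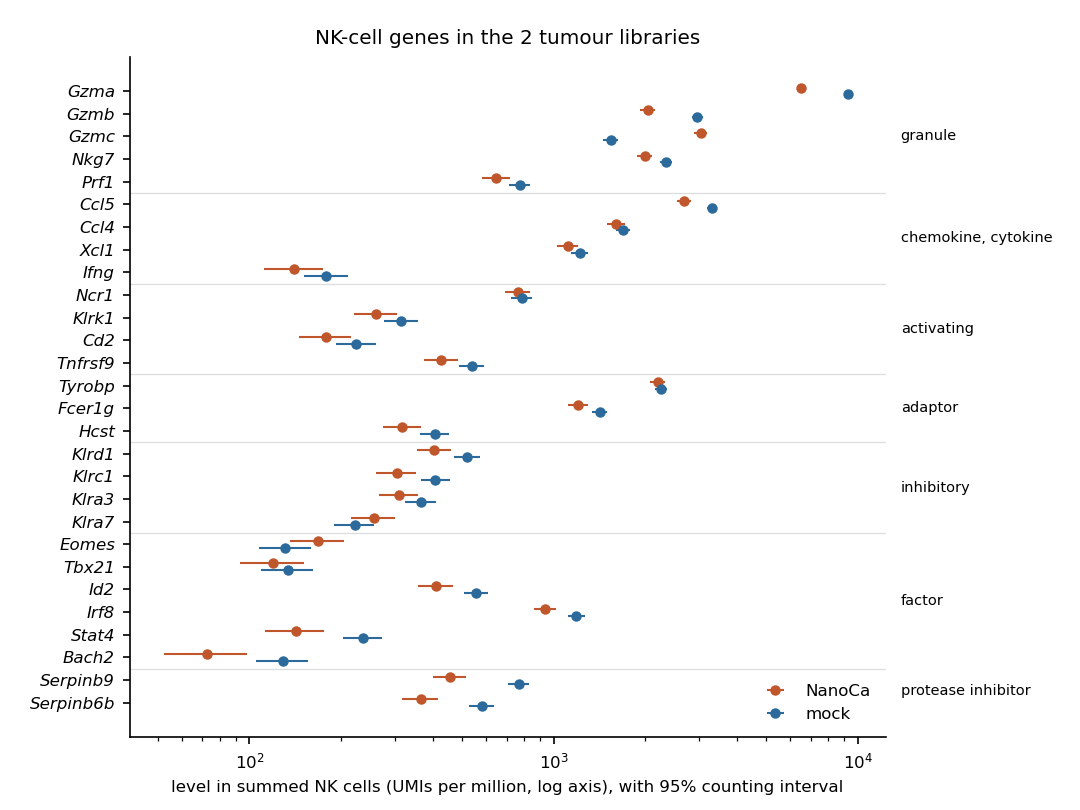
Levels of receptor, adaptor, effector and transcription factor genes in summed tumour NK members, in CPM on a log axis, with NanoCa in orange, mock in blue and bars for the 95% counting interval. Klrk1 (261 and 315) has overlapping bars, whereas Gzma (6507 and 9296), Serpinb9 (455 and 768) and Stat4 (142 and 236) lie apart.

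Granzyme A and B transcripts were abundant and stood lower with NanoCa, and the difference depended on which members were counted. Gzma, a tryptase of the granules, stood at 6507 CPM with NanoCa and 9296 CPM with mock, a log2 ratio of -0.51 (-0.57 to -0.46), and -0.30 without the mixed members. Gzmb, the granzyme that cleaves caspases, stood at 2036 and 2966 CPM, a log2 ratio of -0.54 (-0.64 to -0.44), and -0.40 without them. Among members free of C1q and Rhox5 UMIs, Gzma stood at -0.16 and Gzmb at 0.02 (-0.13 to 0.16). Neither reached 1.5-fold in all members, so neither was called. Prf1, which encodes the pore-forming perforin, stood at 647 and 774 CPM. Nkg7, a granule membrane protein gene of the rule, stood at 1991 and 2336 CPM, which describes the choice of members. Of 21 tested cytotoxic effector genes, Nkg7 among them, 2 were called higher and 7 lower, with a median of -0.26. Over all tested genes 8.56% were called higher and 3.36% lower. Without the mixed members 2 of 19 were called in each direction. Lamp1, a granule membrane gene, was called higher on 33 and 24 UMIs, and Fasl, the death ligand gene, was called lower at 140 and 212 CPM, with -0.34 without the mixed members.

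The inhibitors that protect a killer cell from its own granzymes stood lower with NanoCa. Serpinb9, the inhibitor of granzyme B, stood at 455 and 768 CPM, a log2 ratio of -0.76 (-0.97 to -0.54). Serpinb6b stood at 365 and 580 CPM, a log2 ratio of -0.67 (-0.91 to -0.43). Both pointed the same way without the mixed members, at -0.55 (-0.77 to -0.33) and -0.45 (-0.69 to -0.21), but were then below 1.5-fold. Serpinb9b was called lower as well. In the other barcodes of the tumours Serpinb9 and Serpinb6b stood at -0.53 and -0.44.

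Gzmc and its neighbours Gzmd and Gzmf were carried by very few cells. Gzmc stood at 3041 CPM with NanoCa and 1539 CPM with mock, a log2 ratio of 0.98 (0.88 to 1.09). Of its 1758 NanoCa UMIs 967 came from 1 barcode of 9867 UMIs, and without that barcode the log2 ratio was -0.14 (-0.28 to -0.01). With the top barcode of each library left out it was 0.18 (0.04 to 0.31), and with the mock one alone left out 1.30 (1.19 to 1.42). The same barcode held 12 Ncr1, 39 Prf1, 29 Gzmb and 1 Gzma UMI. It also held 45 of the 68 H2-Aa UMIs and 48 of the 60 H2-Eb1 UMIs of all NanoCa members, with 0 UMIs of Cd3d, Cd3e and Trac. Gzmf stood at 7 UMIs with NanoCa and 65 with mock, of which 64 lay in 1 barcode that also held 252 Gzmc, 59 Gzmd and 267 Gzma UMIs. Gzmd was called lower at 77.9 and 149 CPM. Of its 118 mock UMIs 59 lay in that barcode, and of its 45 NanoCa UMIs 22 lay in 1 barcode. Its log2 ratio was 0.05 (-0.54 to 0.64) without the mock barcode and -0.90 (-1.66 to -0.18) without the top barcode of each library. These granzymes are closely related paralogs, so their separate counts are uncertain. The values of Gzmc, Gzmd and Gzmf thus depend on which single barcodes are counted.

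**Figure D2:**
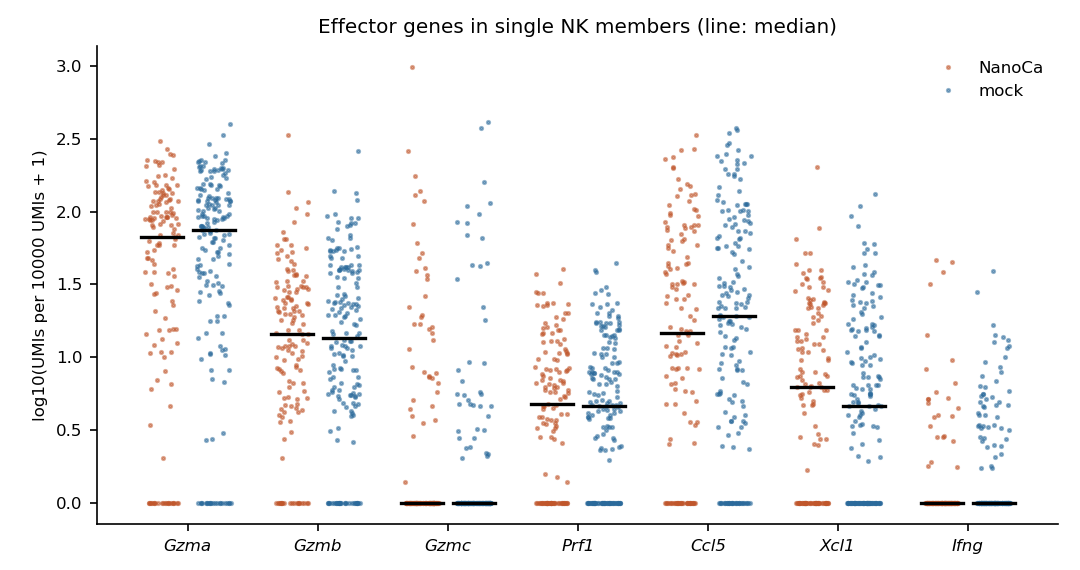
Each point is 1 NK member of the NanoCa (orange) or mock (blue) tumour, and the vertical axis is log10 of UMIs per 10000 UMIs plus 1, with medians as lines. Gzma and Gzmb spread over most members with medians of 65.5 and 13.3 per 10000 with NanoCa and 73.6 and 12.5 with mock, whereas the median of Gzmc is 0 in both and single points reach far above the rest.

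Granzyme carriage was widespread when depth was made equal. After each member was thinned to 1000 UMIs, which left 134 and 173 members, Gzma was detected in 77.6% (69.6 to 84.4) of NanoCa and 83.8% (77.5 to 89.0) of mock members. Gzmb was detected in 64.2% (55.4 to 72.3) and 67.1% (59.5 to 74.0), and Prf1 in 38.8% (30.5 to 47.6) and 39.9% (32.5 to 47.6). The intervals of all 3 genes overlap between libraries. In carcinoma-like barcodes (at least 3 Rhox5 UMIs and none of Ptprc) thinned to the same depth, Gzma was found in 0.0380% and 0.0470%, which measures the RNA that such barcodes hold without expressing the gene. Without thinning, 104 of 137 NanoCa members and 132 of 174 mock members held both Gzma and Gzmb. Of the 41 NanoCa and 42 mock members with a Gzmc UMI, 39 and 41 also held Gzmb, which was found in 85.4% and 83.3% of all members.

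Chemokine genes were high in both libraries and 0 of 9 tested cytokine and chemokine genes were called. Ccl5, a chemokine gene, stood at 2682 CPM with NanoCa and 3324 CPM with mock, a log2 ratio of -0.31 (-0.40 to -0.22). Ccl4, another chemokine gene, stood at 1604 and 1691 CPM, and Xcl1, which attracts cross-presenting dendritic cells through Xcr1, at 1111 and 1220 CPM. Ltb, which encodes lymphotoxin beta, stood at 552 and 450 CPM. Ifng, the gene of interferon-gamma, stood at 140 and 179 CPM, a log2 ratio of -0.35 (-0.77 to 0.05). It was found in 8.21% (4.17 to 14.2) of NanoCa and 15% (10.1 to 21.2) of mock members at 1000 UMIs, and those intervals overlap. Chemokines were unevenly shared among cells, since 14 NanoCa members held 57.9% of all Ccl4 UMIs and 17 mock members held 53.8%.

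Genes of cytokine sensing and of NK transcription factors gave a few calls. Il2rb, the shared receptor chain for interleukin-2 and interleukin-15, stood at 766 and 899 CPM and was not called. Ifngr1 and Il2rg, further receptor chains, stood at 611 and 735 CPM and at 464 and 486 CPM. Stat4, the transducer of interleukin-12 signals, stood at 142 and 236 CPM, a log2 ratio of -0.73 (-1.13 to -0.35). Bach2, a repressor that restrains effector differentiation in lymphocytes, stood at 72.7 and 129 CPM, a log2 ratio of -0.82 (-1.38 to -0.29). Il12rb2, a chain of the interleukin-12 receptor, stood at 137 and 217 CPM, and Il18r1 at 67.5 and 106 CPM. Cd27, a costimulatory receptor of early NK stages, stood at 76.1 and 119 CPM, a log2 ratio of -0.64 (-1.19 to -0.11). Without the mixed members none of these 5 was called, and their log2 ratios were -0.48, -0.50, -0.46, -0.45 and -0.49. Stat4 stood lower in the other barcodes of the NanoCa tumour by the same amount, -0.73. Eomes and Tbx21, the T-box factors of NK maturation, were not called at 168 and 131 CPM and at 119 and 134 CPM. The abundant factors Irf8, Bhlhe40, Id2 and Ets1 stood at -0.34, -0.29, -0.44 and -0.36 on the log2 scale and were not called. Of 19 tested factors 0 were called higher and 2 lower, with a median of -0.29. With the mixed members left out 1 of 19 was called higher, Ikzf3 at 0.62, 0 were called lower, and the median was -0.12.

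The receptor genes called higher rested on few UMIs. Il1rl1, the interleukin-33 receptor gene, had 55 UMIs with NanoCa and 29 with mock. Its log2 ratio was 1.38, and without the mixed members fewer than 50 UMIs were left. Tgfbr3 had 38 and 27 UMIs and lost its call in the same way. Il10ra, an interleukin-10 receptor chain, stood at 106 and 64.3 CPM, a log2 ratio of 0.71 (0.15 to 1.28), and 0.94 (0.38 to 1.51) without the mixed members.

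Homing and maturation genes were largely uncalled. Selplg, a selectin ligand gene, stood at 657 and 772 CPM, Klf2, a trafficking factor, at 474 and 651 CPM, Itgb1, an integrin chain, at 410 and 328 CPM, and Ccr2, a chemokine receptor, at 208 and 222 CPM. None of the 12 tested homing genes was called, and Cd44, an adhesion receptor gene, was called without the mixed members at 0.65. Thy1 and Cd7, of the early NK list, stood at log2 ratios of 0.01 and -0.03, and Ly6c2, of the late list, at -0.11. Of 9 late genes 0 were called, with a median of -0.34 and -0.12 without the mixed members. Tmem176a and Tmem176b, of the ILC1 list, were called higher at 1.13 and 0.66 and stood at 0.53 and 0.15, uncalled, without the mixed members.

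Interferon-stimulated genes were mostly uncalled, with a median above that of all genes. Of 31 tested genes 1 was called higher and 0 lower, beside 8.56% higher and 3.36% lower over all tested genes. Their median log2 ratio was 0.20, against 0.01 over all tested genes and -0.14 for the same 31 genes in the other barcodes. Without the mixed members the median was 0.37 and 4 of 30 were called higher, Ly6a, Isg20, Usp18 and Ifi27l2a. Over all tested genes 6.24% were called higher in that setting. Ly6a, a surface protein gene, stood at 310 and 127 CPM, a log2 ratio of 1.28 (0.92 to 1.65). With members restricted to those without any C1q or Rhox5 UMI, the ratio of Ly6a was -0.70 (-1.44 to 0.01), so its direction depends on which barcodes count as NK. The most abundant genes of the list, Shisa5, Ly6e, Bst2 and Ifi27l2a, stood at log2 ratios of -0.00, 0.57, 0.26 and 0.50. Isg15, a ubiquitin-like protein gene, was detected in 20.9% (14.4 to 28.8) of NanoCa and 15.6% (10.5 to 21.9) of mock members at 1000 UMIs, which overlap. No UMI of the 20 type I and type III interferon genes, Ifnb1 included, was found in NK members of either tumour. Of 15 genes induced mainly by interferon-gamma, 1 was called higher and 1 lower. Cxcl10, a chemokine gene, stood at 149 and 163 CPM and Irf1, a transcription factor gene, at 111 and 150 CPM, both uncalled. Socs1, a feedback inhibitor of cytokine receptors, stood at 86.5 and 42.9 CPM, a log2 ratio of 1.01 (0.36 to 1.69), and 0.81 in the other barcodes. Gbp7, a guanylate-binding GTPase gene, was called lower at 65.7 and 101 CPM and was uncalled without the mixed members, at -0.43.

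**Figure D3:**
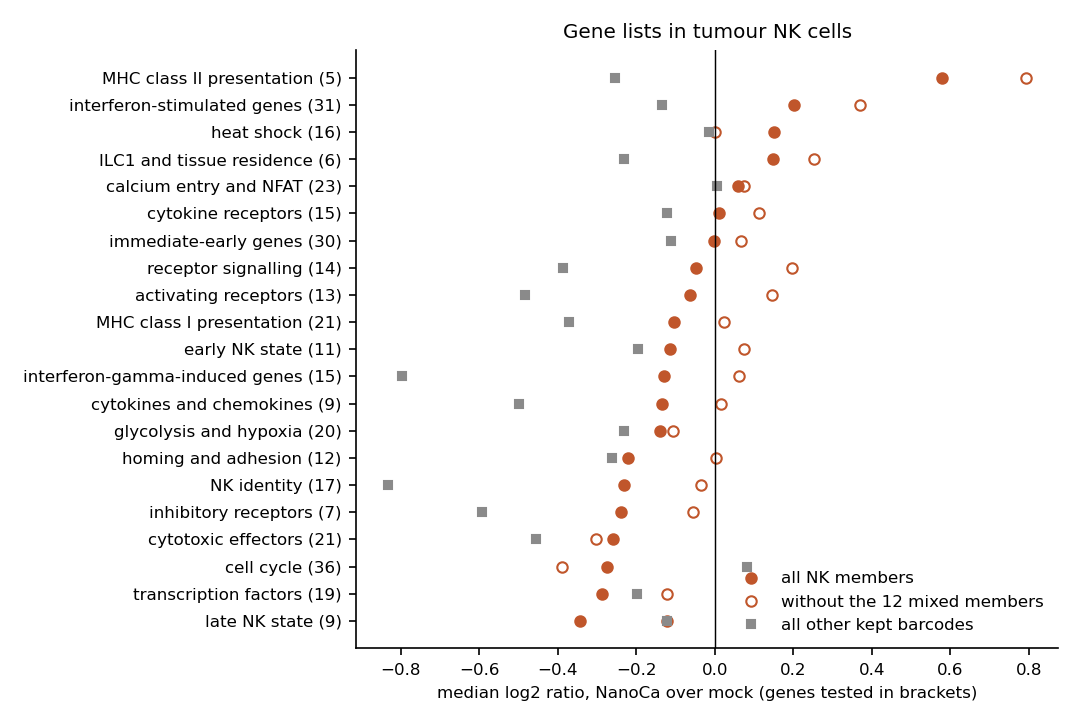
Median log2 ratio (NanoCa over mock) of each gene list, with tested genes in brackets, for all NK members (filled circles), without the 12 mixed members (open circles) and in all other kept barcodes (squares). The cell cycle list lies at -0.28 in NK members and 0.08 in the other barcodes, and the interferon-stimulated list at 0.20 and -0.14.

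Cell cycle genes stood lower in NK members of the NanoCa tumour. Of 36 tested genes 0 were called higher and 9 lower, with a median log2 ratio of -0.28, against 0.08 in the other barcodes. Over all tested genes 3.36% were called lower. Birc5, which encodes survivin of the chromosomal passenger complex, stood at 70.9 and 172 CPM, a log2 ratio of -1.27 (-1.81 to -0.76). Rrm2, the small subunit of ribonucleotide reductase, stood at 46.7 and 114 CPM, a log2 ratio of -1.28 (-1.96 to -0.65). Both stood at 0.26 and 0.13 in the other barcodes. Hmgb2, a chromatin protein gene, stood at 590 and 996 CPM and Stmn1, a microtubule destabiliser, at 256 and 446 CPM, log2 ratios of -0.76 and -0.80. The abundant tubulin genes Tubb5 and Tubb4b, also needed outside division, were not called at -0.17 and -0.39. Leaving out the mixed members, 11 of 33 genes were called lower, with a median of -0.39, beside 2.81% lower over all tested genes. With members restricted to those free of C1q and Rhox5 UMIs, 75 and 85 members, 0 of 20 genes were called and the median was 0.04.

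Cell cycle UMIs were also counted in each member. At 1000 UMIs the median member held 3 cell cycle UMIs in each library, and the upper quartile was 5 in each. At least 10 such UMIs were held by 10 of 134 NanoCa members, 7.46% (3.64 to 13.3), and by 23 of 173 mock members, 13.3% (8.62 to 19.3). CD8 T barcodes gave 3.98% (1.73 to 7.69) and 11.7% (8.16 to 16.1). Carcinoma-like barcodes gave 24.4% (23.3 to 25.6) and 21.3% (20.1 to 22.6). The lymphocyte shares were lower with NanoCa and the carcinoma-like share was not, though the NK intervals overlap.

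**Figure D4:**
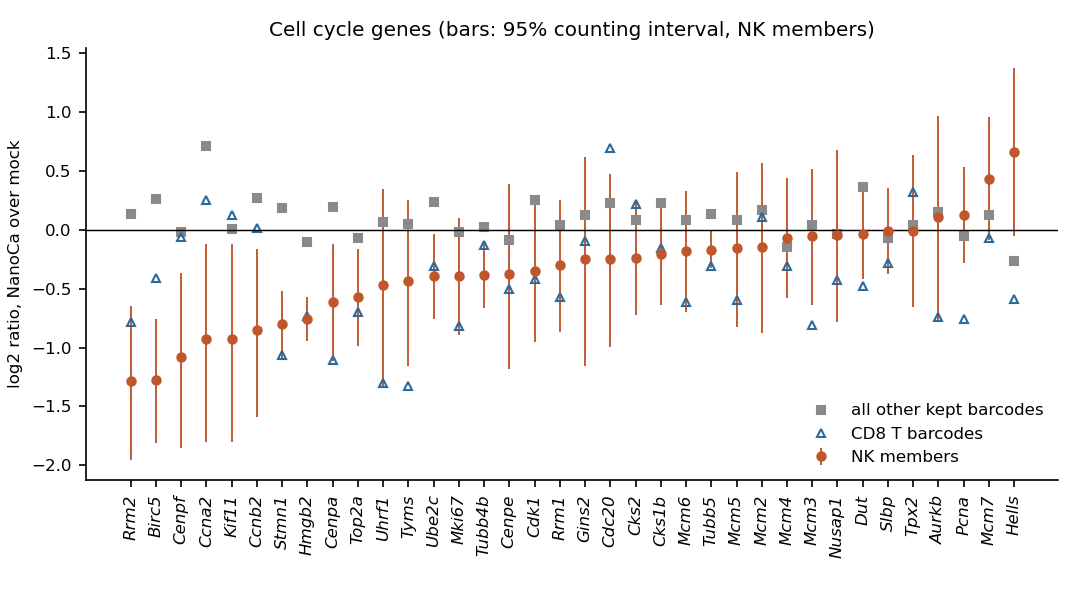
Log2 ratio (NanoCa over mock) of the 36 tested cell cycle genes in NK members, with 95% counting intervals, beside the other kept barcodes (squares) and CD8 T barcodes (triangles). Rrm2 (-1.28) and Birc5 (-1.27) lie lowest in NK members, and for the 9 genes called lower the other barcodes lie above the NK points.

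Promoters of some of these genes are shown because 9 genes of 1 program stood lower together. RefSeq promoter sequences (GRCm38.p6) were matched by symbol for 7 of the 9 genes, and windows from 100 bases before to 30 bases after the start were searched on both strands. Capitals mark TTTGAA, the core of the cell cycle genes homology region, and CCAAT, the box bound by NF-Y, or their reverse complements, and the motifs do not overlap each other.
Ccnb2 (chr9:70421525-70421654, minus strand): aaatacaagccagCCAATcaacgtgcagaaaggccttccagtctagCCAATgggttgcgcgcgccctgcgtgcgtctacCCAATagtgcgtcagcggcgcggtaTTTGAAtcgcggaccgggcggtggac
Cenpf (chr1:189688057-189688186, minus strand): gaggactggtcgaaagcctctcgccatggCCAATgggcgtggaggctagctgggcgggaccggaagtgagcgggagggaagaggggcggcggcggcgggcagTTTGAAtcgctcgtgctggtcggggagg
Hmgb2 (chr8:57511743-57511872, plus strand): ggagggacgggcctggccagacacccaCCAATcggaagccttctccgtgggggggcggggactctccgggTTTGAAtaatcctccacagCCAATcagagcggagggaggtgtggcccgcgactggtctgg
Rrm2 (chr12:24708154-24708283, plus strand): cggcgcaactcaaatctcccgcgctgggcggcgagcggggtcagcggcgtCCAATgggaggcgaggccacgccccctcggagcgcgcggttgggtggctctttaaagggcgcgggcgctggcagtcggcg
Birc5 (chr11:117849137-117849266, plus strand): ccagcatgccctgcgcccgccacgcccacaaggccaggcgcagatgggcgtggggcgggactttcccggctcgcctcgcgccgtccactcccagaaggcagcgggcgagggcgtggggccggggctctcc
Ccnb2, Cenpf and Hmgb2 hold both motifs, Rrm2 holds CCAAT alone, and Birc5 holds neither in this window. Cenpa and Kif11, whose windows are not shown, also hold both. TTTGAA was found in 5 of the 7 windows and in 8.29% of 27025 promoters of the same length, and CCAAT in 6 of 7 and in 24.5%. Among the 30 tested cell cycle genes with a promoter, 12 held TTTGAA and 23 held CCAAT, so both motifs mark the program as a whole and are no measure of which genes were lower.

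Calcium, stress and antigen presentation genes gave scattered calls. Of 23 tested genes of calcium entry and NFAT signalling, 4 were called higher and 0 lower, with a median of 0.06, beside 8.56% higher over all tested genes. Orai1, the pore of store-operated calcium entry, stood at 98.6 and 21.4 CPM, a log2 ratio of 2.20 (1.40 to 3.08), and the other barcodes gave 1.92. Atp2b1, a plasma membrane calcium pump, stood at 265 and 163 CPM, a log2 ratio of 0.70 (0.35 to 1.05), with 0.03 in the other barcodes and 0.72 without the mixed members. Ppp3ca, the catalytic subunit of calcineurin, and Atp2a2, a reticulum calcium pump, were called at 0.73 and 0.69 and lost their calls without the mixed members. The sensors Stim1 and Stim2 were not called, nor were Nfatc1 and Nfatc3. The S100 calcium-binding genes S100a6, S100a10 and S100a11 stood at log2 ratios of 0.21, -0.01 and 0.06.

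Among 16 heat shock genes 5 were called higher and 0 lower, beside 8.56% higher over all tested genes. Without the mixed members 1 of 14 was called higher, beside 6.24% over all tested genes, and the median was 0.001. Hspb1, 1 of the 5, had 22 of its 46 NanoCa UMIs in 1 mixed member. Dnajb1 and Hspa1b, inducible chaperones, stood at 680 and 414 CPM and at 586 and 380 CPM. Hspa1b kept its log2 ratio without the mixed members, at 0.66 (0.42 to 0.90), whereas Dnajb1 stood at 0.37 and Hsph1 at 0.03. The immediate-early gene Egr1 stood at 493 and 257 CPM, a log2 ratio of 0.94, with 0.92 in the other barcodes. Jund stood at 0.68 and 0.58. Nfkbid, a regulator of NF-kappaB, was called higher at 0.69, with -0.30 in the other barcodes, whereas the more abundant Junb and Nfkbia were uncalled at -0.22 and 0.24. The constitutive chaperones Hsp90ab1 and Hspa8 stood at 0.19 and 0.06. Atf3, a stress-induced factor, stood lower at 48.4 and 126 CPM, a log2 ratio of -1.38 (-2.04 to -0.76), against -0.52 in the other barcodes. Dissociation is known to induce such genes, and its part was not tested. Hif1a and Slc2a1, which encode the hypoxia factor and a glucose transporter, were lower at log2 ratios of -0.68 and -0.87, while the other 18 tested glycolysis and hypoxia genes were not called. Ldha, Eno1, Gapdh and Pkm, enzymes of glycolysis, stood between -0.05 and -0.01.

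MHC class I genes were uncalled in NK members, 0 of 21, with a median of -0.10 and -0.37 in the other barcodes. H2-K1 and H2-D1, the classical heavy chain genes, stood at 3583 and 3483 CPM and at 2645 and 2740 CPM. B2m, the light chain gene, stood at 1609 and 1897 CPM. MHC class II genes were few, and H2-Aa was called higher at 118 and 36.6 CPM through the barcode described above, without which its log2 ratio was 0.15 (-0.71 to 0.99). H2-Eb1 was called higher at 104 and 46.7 CPM with 48 of its 60 NanoCa UMIs in that barcode. Cd74, the invariant chain gene, was called lower at 84.8 and 143 CPM. In all, 2 of 5 tested class II genes were called higher and 1 lower, with a median of 0.58. With the mixed members left out 4 of 5 were called higher and 0 lower, with a median of 0.79, and Cd74 was uncalled at -0.45. The barcode of 9867 UMIs was not a mixed member, so its 45 H2-Aa, 48 H2-Eb1 and 15 H2-Ab1 UMIs stayed in. The summed level of the list, at a log2 ratio of 0.41, ranged from -0.47 to 0.87 over the alternatives.

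The genes farthest apart over all tested genes were mostly not NK genes. Acta2 had 118 UMIs with NanoCa, of which 117 lay in 1 mixed member of 14074 UMIs, and 0 with mock. That member also held 85 of 90 Igfbp7 UMIs, 186 of 261 Sparc UMIs, 38 of 76 Bgn UMIs and 22 of 46 Hspb1 UMIs, the 5 genes with the highest interval bounds. Arf5, Raly and Srm followed at log2 ratios of 2.67, 2.41 and 2.55, and they differed as much in all other kept barcodes, at 2.11, 2.14 and 2.71. Of the 336 genes called higher, 94 were also at least 1.5-fold higher in the other barcodes, 27.98%, against 3.31% of all tested genes, and 100 pointed the opposite way there. Of the 132 called lower, 21 were at least 1.5-fold lower there, 15.9%, against 2.80%, and 40 pointed the opposite way. The share pointing the opposite way over all tested genes was not computed. The median log2 ratio of all tested genes in the other barcodes was 0.002. On the lower side, beside Birc5, Rrm2, Gzmf and Atf3, stood Hilpda, a hypoxia-induced lipid droplet gene, at 112 and 255 CPM, with -0.11 in the other barcodes. Il1b had 14 and 56 UMIs and is a myeloid cytokine gene. The histone gene H4c4 stood at 206 and 393 CPM and the predicted gene Gm9844 at 19.0 and 69.4 CPM.

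CD8 T barcodes of the same 2 tumours, 201 with NanoCa and 273 with mock, gave different levels and larger differences in the killing genes. They had at least 2 Cd3 UMIs and a Cd8a or Cd8b1 UMI and no Ncr1 or Klrb1c UMI, with the other limits as for NK members. Of 4957 genes 6.84% were called higher and 5.83% lower in them. Gzma stood at 6.49 and 51.3 CPM in CD8 T barcodes, and Tyrobp at 74.6 and 43.6 CPM, far below the NK levels. Gzmb stood at 109 and 696 CPM in CD8 T barcodes, a log2 ratio of -2.68 (-3.06 to -2.32), beside -0.54 in NK members. Prf1 gave -0.83 beside -0.26 and Serpinb9 gave -1.87 beside -0.76. Of the cytotoxic list 13 of 20 genes were called lower in CD8 T barcodes, with a median of -0.86, and of the inhibitory receptors 7 of 8, with a median of -0.95. Tigit stood at -0.95 (-1.37 to -0.54) in CD8 T barcodes and at 0.16 (-0.28 to 0.59) in NK members. Cell cycle genes gave 13 of 37 lower and a median of -0.42 in CD8 T barcodes. The 2 cell types come from the same libraries, and the difference between their ratios was not tested.

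NK cells of the lymph node, found by the same rule in 60 NanoCa and 102 mock barcodes, showed which genes went with the tumour. Of 2853 genes, 3.68% were higher in tumour than in TDLN NK cells in both treatments and 7.47% were lower. Il7r, the interleukin-7 receptor gene, stood at 17.3 and 11.4 CPM in tumour NK members with NanoCa and mock and at 331 and 95.3 CPM in TDLN. Emb, an adhesion molecule gene, stood at 126 and 168 CPM in tumour and 775 and 390 CPM in TDLN. Cxcr4, a homing receptor gene, stood at 27.7 and 36.6 CPM against 115 and 111 CPM, and Foxo1, a quiescence factor, at 51.9 and 56.8 CPM against 228 and 149 CPM. Rora, Camk4, Plxnc1 and Pja1 were lower in the same way. Of the early NK list 6 of 12 genes were lower and 0 higher, and of the transcription factors 7 of 18 lower and 0 higher, Eomes and Stat4 among them. Ccl5 was lower in tumour, at 2682 and 3324 CPM against 8803 and 5381 CPM, whereas Ifng was higher, at 140 and 179 CPM against 88.1 and 81.1 CPM.

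The genes leading on the higher side were abundant in the other tumour barcodes. Ccn1, Cxcl1, Ctsl, Ccl2, Cald1, Fn1, Slit2 and Zfpm2 led, and the other kept tumour barcodes held each of them at a higher level than NK members in sum did, except Zfpm2 with NanoCa, at 313 CPM in NK members and 305 CPM in the others. Ccn1, a matrix-associated protein gene, stood at 747 and 208 CPM in NK members, 1387 and 1267 CPM in the other barcodes, and 98.6 and 135 CPM in NK members without the mixed ones. The mixed members were chosen partly by their Ccn1 UMIs, so that last fall describes the choice. The part of free or co-captured RNA in these levels was not tested.

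**Figure D5:**
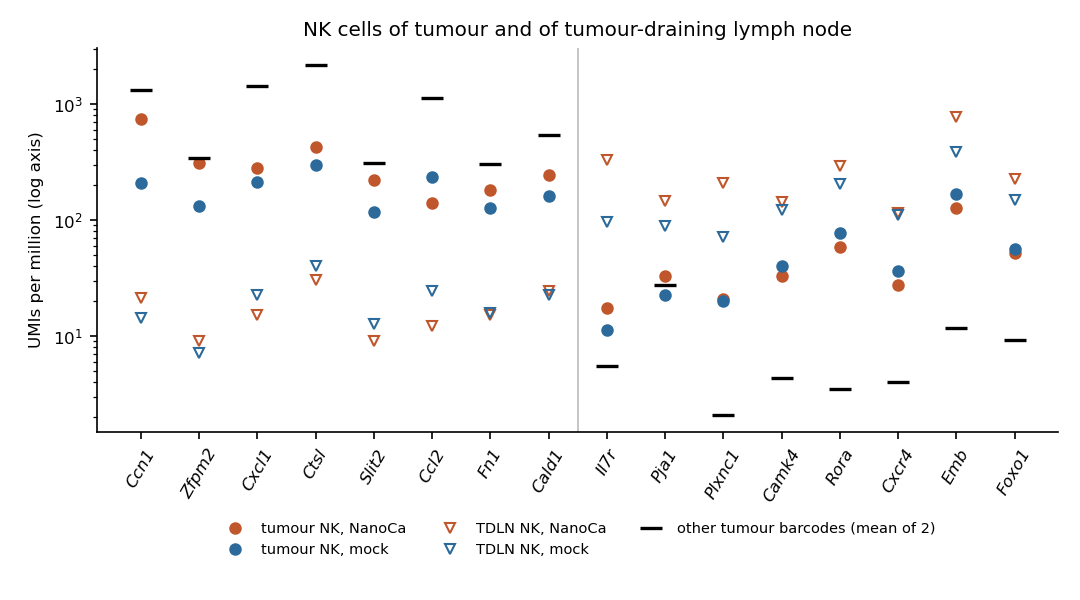
CPM on a log axis in tumour NK members (circles) and TDLN NK barcodes (triangles) with NanoCa (orange) or mock (blue), for the 8 genes leading on each side, with the mean of the other tumour barcodes of both libraries as bars. For the genes on the left the bars lie above the tumour NK points, and for Il7r, Emb and Cxcr4 on the right the TDLN triangles lie above all else.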

How the data were processed

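Single-cell RNA of 4 libraries was deposited as raw UMI counts per gene and barcode. The authors made these counts with Cell Ranger 7.1.0, per the file headers, from 10x 3′ v2 libraries, per the labels' protocols. The build used and any doublet removal are not stated there. Groups follow the treatment tags. The members, gene lists and alternatives were chosen with earlier results of these data known. UMIs were summed over members per library, without a model, since each group is 1 library. Ratios carry exact conditional binomial intervals, levels exact Poisson and shares Clopper-Pearson intervals at 95%. The 4 NK markers, per list the 4 most abundant genes and up to 4 called in each direction, and the 8 most extreme genes of each overall and tissue ranking are named. The naming of others, such as Klra8, Klra9, Pdcd1, Havcr2, Tigit, Eomes, Isg15, Stim1, Fasl and Cd247, came after their values were seen. Ranked genes had 50 CPM or more. Doublets were scored with Scrublet (scanpy 1.11.5) but kept, and the 12 mixed members, the removal of single barcodes and the threshold of 10 cell cycle UMIs were chosen after the data were seen. Interval coverage was checked only on independent Poisson counts, the model that the intervals assume. That check cannot show coverage for UMIs clustered in single members. TMM (edgeR 4.0.16), median-of-ratios (DESeq2 1.42.0) scaling, other count minimums and other member rules were the alternatives. The TDLN libraries entered only as comparison. For 3 NanoCa members and 1 mock member, thinning to 1000 UMIs was not possible.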

Additional observations from a re-analysis of the deposited data

Results flagged for a closer look

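For 14 of 47 called list or leading genes with at least 50 TDLN UMIs, tumour NK cells and TDLN NK cells went opposite ways between NanoCa and mock, with both counting intervals excluding equality. The 47 genes had all been called in tumour first, and the same count over all tested genes was not made. Each direction rests on 1 library per group, and the difference between tissues was not tested. Higher with NanoCa in tumour and lower in TDLN were Ly6a, at log2 ratios of 1.28 and -3.46, Gzmc, at 0.98 and -3.18, Srm, at 2.55 and -1.88, and Tmem176b, at 0.66 and -1.28. The same held for H2-Eb1, at 1.15 and -0.91, Ppp3ca, at 0.73 and -0.79, Arf5, at 2.67 and -0.74, and H2-Aa, at 1.69 and -0.68. Orai1 gave 2.20 and -0.44, and Raly gave 2.41 and -0.38. In the other tumour barcodes Arf5, Raly, Srm and Orai1 stood at 2.11, 2.14, 2.71 and 1.92. Lower with NanoCa in tumour and higher in TDLN were Cd27, at -0.64 and 0.61, Bach2, at -0.82 and 0.51, Stat4, at -0.73 and 0.42, and Fasl, at -0.60 and 0.39. Several TDLN intervals ended close to equality, at -0.006 for Raly, -0.04 for Ppp3ca, H2-Eb1 and Orai1, and 0.03 for Fasl. Ly6a and Srm were scarce in TDLN NK cells with NanoCa, at 21.3 CPM each, beside 235 and 78.3 CPM with mock. Without the 12 mixed members Cd27, Bach2, Stat4, Fasl, Tmem176b and Ppp3ca were not called in tumour. The tumour ratio of Gzmc was -0.14 and that of H2-Aa 0.15 without 1 NanoCa barcode, which also held 48 of the 60 H2-Eb1 UMIs. Among members free of C1q and Rhox5 UMIs, the tumour ratios of Ly6a, H2-Aa, H2-Eb1 and Tmem176b were -0.70, -0.094, -0.68 and -0.30.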

How the results depend on the processing

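The NK share stayed lower with NanoCa in all 10 alternatives, at log2 ratios from -0.69 to -0.45, and the interval included 0 among members free of C1q and Rhox5 UMIs (-0.92 to 0.01). Of genes called higher, 600 and of genes called lower 191 passed with at least 20 UMIs, 134 and 83 with at least 100 UMIs, 144 and 25 at 2-fold, 92 and 58 among members free of C1q and Rhox5 UMIs, and 35 and 16 after thinning. TMM scaling gave 261 higher and 213 lower and median-of-ratios scaling 232 and 261, moving the median of all genes to -0.08 and -0.11. Without the mixed members, an alternative chosen after seeing the data, 213 were higher, 166 of them among the 336. The summed level of cytotoxic effectors, -0.27, was -0.35 with TMM, -0.39 with median of ratios and -0.11 without the highest doublet scores. It was -0.077 without C1q and Rhox5, -0.32 with at least 2 Ncr1 or Klrb1c UMIs and -0.23 with stricter barcode filters. It was -0.18 without members above 20000 UMIs, -0.063 without the mixed members, -0.078 with members weighted equally and -0.12 after thinning. Gzmc is on this list, and 967 of the 10715 NanoCa UMIs of the list were Gzmc UMIs of 1 barcode. That barcode is not a mixed member, and the sum without it was not computed. The summed level of interferon-stimulated genes, 0.14, was 0.059 and 0.024 under the 2 scalings and 0.22 without the highest doublet scores. It was 0.27 without the mixed members, 0.26 with equal weights and 0.25 after thinning. That of cell cycle genes, -0.36, was -0.44 and -0.48 under the scalings, -0.0044 without C1q and Rhox5, -0.24 without Trac, Cd4, Cd8a and Cd8b1 UMIs, -0.52 without members above 20000 UMIs, -0.44 without the mixed members, -0.24 with equal weights and -0.21 after thinning. Among members free of C1q and Rhox5 UMIs, called genes that changed sign were Bgn at -0.56, Ly6a at -0.70, H2-Aa at -0.094, H2-Eb1 at -0.68 and Tmem176b at -0.30. Acta2 and Gzmf stood at -1.15 and 1.17 there. In all members Acta2 had 0 mock UMIs and Gzmf had 7 NanoCa UMIs. A count of 0 entered ratios as 3 UMIs, so the sign of Acta2 there is not a result. After thinning, Hsph1 stood at -0.0018 and H2-Eb1 at -0.31. The cause was not tested. The summed levels of 12 of 22 lists and the ratios of 14 of 57 named genes, Acta2 and Gzmf among them, changed sign in at least 1 alternative. No paired analysis was possible because each group is 1 library.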
